A study of Homo sapiens with 10 samples.

Results

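The vacuolar H+-ATPase (V-ATPase) is the rotary proton pump that acidifies lysosomes, late endosomes and secretory compartments. Its cytosolic V1 sector hydrolyses ATP and turns a central shaft, and its membrane V0 sector carries protons across the bilayer. The pump is also part of the lysosomal surface machinery through which amino acids are reported to mTORC1, and many of its genes carry the CLEAR element bound by TFEB and related MiT/TFE factors. The mRNAs of 10 V-ATPase subunits, 7 of V1 and 3 of V0, were taken by gene symbol from the 28380 genes counted, and all 10 had enough counts to be tested among 13378 genes. RPE-1 is an established, telomerase-immortalized line of human retinal pigment epithelial cells. In this experiment 5 replicates of 50000 cells were given 25 µM of sulforaphane (SFN), an isothiocyanate of cruciferous vegetables, and 5 were given the vehicle DMSO, all for 4 h in complete medium. A single line was used, and the labels do not say whether the replicates were separate cultures, so the p-values measure the spread between these samples, which may be technical.

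Library totals lay between 12375860 and 20666692 counts, and the members had between 388 and 3993 counts in a library. Of the markers of pigment epithelium, RPE65 and RLBP1 had at most 4 counts in a library, while BEST1, OTX2, MITF, KRT8, KRT18 and VIM were all detected. Markers of leukocytes, endothelium and other epithelia (PTPRC, PECAM1 and EPCAM) had at most 9. Of the 12 markers listed, 6 could be tested, 4 with a positive fold change. OTX2 (log2 fold change -0.64, adjusted p = 0.0029 in edgeR) and MITF (-1.12, adjusted p = 5.3e-05), the latter a MiT/TFE factor, were lower in SFN. BEST1 was at 18.8 ± 13.7 CPM in DMSO and 42.4 ± 36.7 CPM in SFN (SD, n = 5 each), which did not pass (1.17, adjusted p = 0.16 in edgeR), and without DMSO replicate 1 BEST1 (1.68, adjusted p = 0.0096) and KRT8 (0.37, adjusted p = 0.016) were higher in SFN. The last exon of BEST1 overlaps FTH1 on the opposite strand, and the use of strand in counting is not stated. The part of FTH1 in the BEST1 counts was not tested. The part of these markers in the results was not tested either. DMSO replicate 1 stood apart, with a mean Spearman correlation across genes of 0.935 with the other DMSO libraries, against 0.979 to 0.982 for those, and relative to the mean of all libraries its log2 CPM had a slope of -0.31 per doubling of transcript length. The slope of the other 4 DMSO libraries was between 0.0953 and 0.157, that of SFN replicates 1 to 4 between -0.209 and -0.0341, and that of SFN replicate 5 was 0.134. Without DMSO replicate 1, therefore, all DMSO libraries had a positive slope and 4 of the 5 SFN libraries a negative one. The results below are therefore given with and without that library. Levels are given as CPM, counts scaled to library size with TMM factors. Fold changes compare SFN with DMSO in the quasi-likelihood test of edgeR, each with its standard error (SE), and p-values were adjusted over every gene tested by the method of Benjamini and Hochberg. In bulk RNA, more cells carrying a transcript and more transcript per cell cannot be told apart.

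RefSeq promoter windows of GRCh38.p14, from 250 bases before to 50 after the RefSeq start, were found for 5 of the 10 members, ATP6V1D, ATP6V1E1, ATP6V1G1, ATP6V0A1 and ATP6V0D1, and for 13 of the 16 other subunit genes. They were searched on both strands for the E-box CACGTG, for TCACGTGA, the core of the CLEAR element, which contains the E-box, for TGACNNNGC, the core of the antioxidant response element bound by NRF2, and for TGATGNAAN, the core of the element bound by ATF4 with C/EBP. The E-box was found in 2 members, ATP6V1G1 and ATP6V0D1, and as TCACGTGA in both. Of 35116 promoter windows, 7.26% held the E-box and 0.98% held TCACGTGA. Among the other subunits ATP6V0B and ATP6V0E2 held an E-box, and none held TCACGTGA. TGACNNNGC was found in 3 members, ATP6V1G1, ATP6V0A1 and ATP6V0D1, against 13.3% of all windows. It was also found in 3 of the 13 other subunits, ATP6V0B, ATP6V0C and ATP6V0E2. The 5 members had 6 windows and the 13 other subunits 20, so counts of genes and shares of windows are unlike measures. In ATP6V0C and ATP6V0E2 only some of the windows matched. TGATGNAAN was found in 0 members and 0 other subunits, against 3.61%. These are matches of letters, and binding was not measured. The E-boxes of a stalk subunit, of the subunit that couples shaft and ring, and of a ring subunit are shown next to the antioxidant core of ATP6V0A1, the member with the smallest fold change. Each stretch is 30 bases, 5′ to 3′ on the strand of the gene, with the match in capitals. GENCODE places the start of ATP6V1G1 at 114587706 and that of ATP6V0B at 43974487, upstream of the RefSeq starts, so that by GENCODE these E-boxes lie inside the genes.
ATP6V1G1, chr9:114587699-114587728, plus strand, E-box starting 58 bases before the RefSeq start at 114587769: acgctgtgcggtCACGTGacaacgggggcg
ATP6V0D1, chr16:67481199-67481228, minus strand, E-box starting 59 bases before the RefSeq start at 67481157: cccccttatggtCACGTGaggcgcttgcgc
ATP6V0B, chr1:43974900-43974929, plus strand, E-boxes starting 57 and 39 bases before the RefSeq start at 43974960: ggtCACGTGgtaccggcgcatCACGTGggc
ATP6V0A1, chr17:42458751-42458780, plus strand, antioxidant core starting 116 bases before the RefSeq start at 42458878: tgcgacccccgTGACTCCGCactgctgcag

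SFN raised the mRNA of ATP6V1C1 and ATP6V1E1, both of the V1 sector, and 9 of the 10 members had a positive fold change. Of the 10, 2 were significantly increased and 0 decreased by edgeR's quasi-likelihood test, where 9.07% of all genes tested were increased and 13.9% decreased (1214 and 1862 genes, or 819 and 2163 when the libraries were scaled by their totals alone). At an unadjusted p under 0.05, 8 members were increased and 0 decreased, against 14.6% and 20% of all genes. Without DMSO replicate 1, 9 of the 10 were significantly increased and 0 decreased by the same test, but the background rose as well, to 22.5% increased and 23.5% decreased, and in that fit the length slope moved with treatment, as given above. Without SFN replicate 5, 5 members were increased and 0 decreased, against 8.39% and 13.2% of all genes. That fit left only SFN libraries with a negative length slope, against a positive one in every DMSO library but replicate 1. SFN replicates lay above all DMSO replicates in 3 members (8.78% of all genes) and below all of them in 0 (11.1%), and above the other 4 DMSO replicates in 8 members (16.6%). The median log2 fold change of the 10 was 0.44, against -0.028 over all genes tested, and 0.60 against -0.0032 without DMSO replicate 1.

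**Figure D1:**
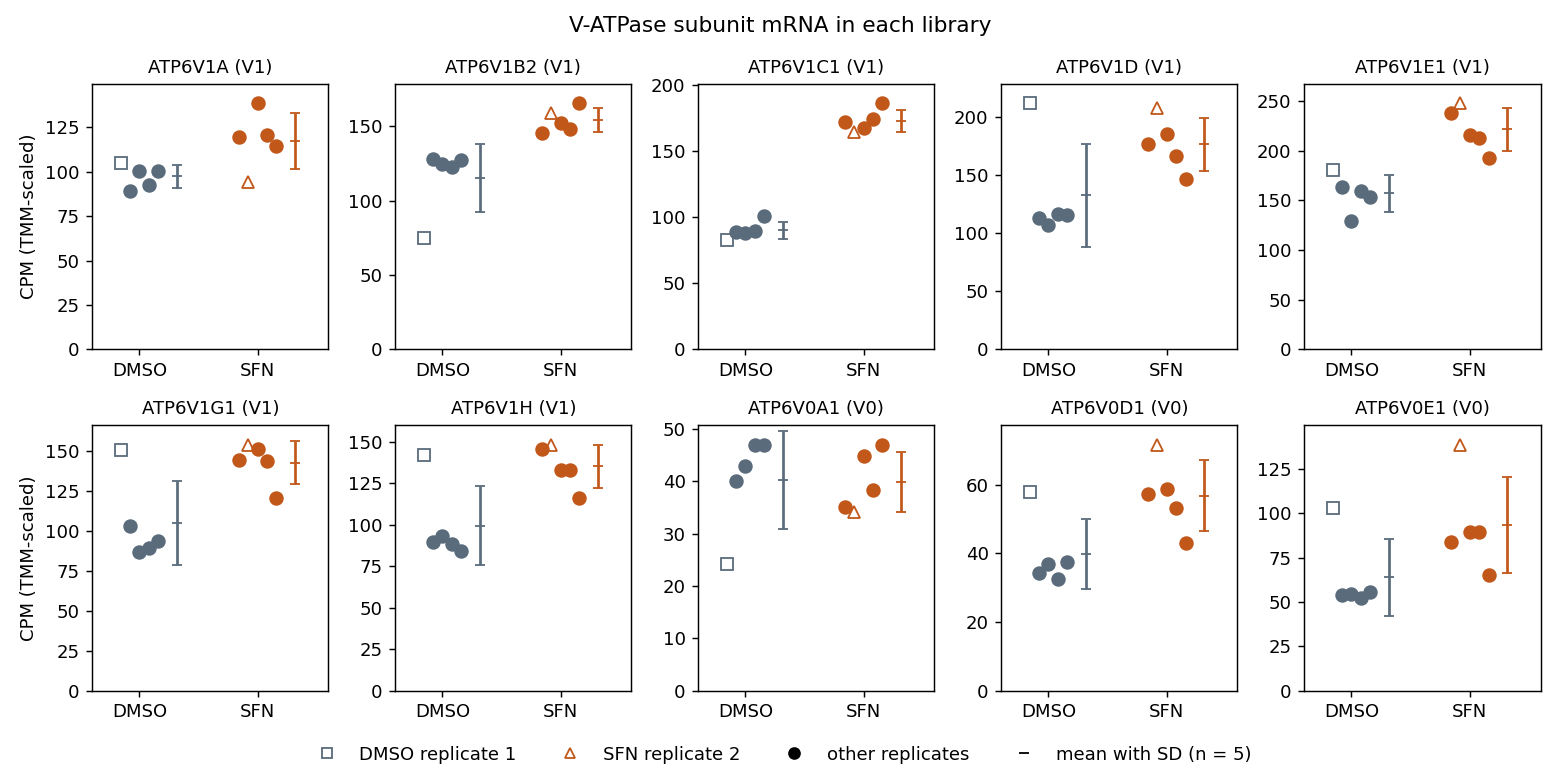
TMM-scaled CPM of the 10 members (1 panel each, y axis from 0) in each DMSO and SFN library, with the mean and SD of 5 replicates beside the points. DMSO replicate 1 (open square) is the highest DMSO library in 7 panels and the lowest in 3, and the SFN points of ATP6V1B2, ATP6V1C1 and ATP6V1E1 lie above all DMSO points.

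In the catalytic head of V1, 3 A subunits that bind and hydrolyse ATP alternate with 3 B subunits. ATP6V1A encodes A and lies on chromosome 3 of GRCh38 from 113746770 to 113812056 (GENCODE 44). Its level was 105, 89.2, 100.2, 92.5 and 100.4 CPM in DMSO replicates 1 to 5 and 119, 94.1, 138, 120.5 and 114 CPM in SFN replicates 1 to 5. The groups overlapped through SFN replicate 2 alone, and the log2 fold change of 0.27 (SE 0.11, adjusted p = 0.11) did not pass the threshold. It was 0.29 without DMSO replicate 1 (adjusted p = 0.033), and 0.34 without SFN replicate 2, where it passed as well. ATP6V1B2, the B isoform of most tissues, lies on chromosome 8 from 20197381 to 20226819. It stood at 74.6, 128, 125, 123 and 127 CPM in DMSO and 146, 159, 152, 148 and 166 CPM in SFN, in the same order of replicates. All SFN libraries were above all DMSO libraries, and DMSO replicate 1 was far below the rest of its group. The log2 fold change was 0.42 (SE 0.14, adjusted p = 0.058) with that library and 0.29 (SE 0.071, adjusted p = 0.0048) without it. ATP6V1B1, the isoform of kidney and inner ear, had at most 6 counts in a library.

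Among the 10 members ATP6V1C1 had the largest fold change. It encodes subunit C, which clamps the peripheral stalks to the membrane sector and leaves the complex when V1 and V0 come apart, and it lies on chromosome 8 from 103021063 to 103073051. DMSO replicates 1 to 5 held 82.8, 88.7, 87.9, 89.8 and 101 CPM, and SFN replicates 1 to 5 held 172, 164, 167, 174 and 186 CPM. The groups were far apart, with the lowest SFN library above the highest DMSO library, and the mean rose from 90 ± 6.67 CPM (SD, n = 5) to 173 ± 8.43 CPM (SD, n = 5). This was a 1.92-fold increase (log2 fold change 0.94, SE 0.092, adjusted p = 2.6e-05). The log2 fold change stayed between 0.85 and 1.01 over 18 alternative analyses, in all of which it passed the threshold, and was 0.91 without DMSO replicate 1. ATP6V1C2, the second C isoform, had between 3 and 14 counts in DMSO and between 12 and 33 in SFN. Its log2 fold change was 1.501 (SE 0.44, adjusted p = 0.030), with overlapping groups. Its call was lost when DMSO replicate 2, 3, 4 or 5 or SFN replicate 1 or 2 was left out, with a log2 fold change of at least 1.145 in each of the 10 leave-one-out fits. The last exon of ATP6V1C2 overlaps PDIA6 on the opposite strand, an abundant gene that was itself increased (log2 fold change 0.51, SE 0.091, adjusted p = 0.0017), and the use of strand in counting is not stated, so its part in the ATP6V1C2 counts was not tested.

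The peripheral stalks that hold the head still are pairs of E and G. ATP6V1E1, on chromosome 22 from 17592136 to 17628749, was at 180.0, 164, 129, 159 and 153 CPM in DMSO and at 238, 248, 216, 212 and 192 CPM in SFN. All SFN libraries were above all DMSO libraries. The mean rose from 157 ± 18.6 CPM (SD, n = 5) to 221 ± 21.9 CPM (SD, n = 5), a 1.41-fold increase (log2 fold change 0.49, SE 0.12, adjusted p = 0.0091), and the gene passed the threshold in all 18 alternatives. For ATP6V1G1, on chromosome 9 from 114587706 to 114598915, the DMSO values were 150.3, 103, 86.8, 89.2 and 93.7 CPM and the SFN values 144, 154, 151, 144 and 120.4 CPM. DMSO replicate 1 lay among the SFN libraries, and the other 4 DMSO replicates lay below all of them. The log2 fold change was 0.45 (SE 0.16, adjusted p = 0.059), and 0.61 (SE 0.090, adjusted p = 1.1e-04) without that library. Processed copies of these genes are in the genome and could take reads from them, but ATP6V1E1P1, ATP6V1G1P3 and ATP6V1G1P4 had at most 2 counts in a library. Of the isoforms, ATP6V1E2 was at 4.85 ± 1.40 CPM in DMSO and 5.75 ± 1.20 CPM in SFN (SD, n = 5 each; log2 fold change 0.25, adjusted p = 0.47), and ATP6V1G2 and ATP6V1G3 had at most 12 and 2 counts.

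ATP6V1D encodes the central shaft, which the head turns, and lies on chromosome 14 from 67294371 to 67360265. The DMSO libraries read 212, 113, 107, 116 and 116 CPM and the SFN libraries 177, 207, 186, 166 and 147 CPM. DMSO replicate 1 was the highest of all 10 libraries, and the other 4 DMSO replicates were below every SFN replicate. With it the log2 fold change was 0.41 (SE 0.19, adjusted p = 0.15), and without it 0.64 (SE 0.095, adjusted p = 1.2e-04). ATP6V1H, on chromosome 8 from 53715543 to 53843558, encodes the subunit at the interface of the sectors that restrains ATP hydrolysis in free V1. It was at 142, 89.4, 93.4, 88.6 and 84.3 CPM in DMSO and at 145.5, 148, 133, 133 and 116 CPM in SFN. Again DMSO replicate 1 alone overlapped the SFN range. The log2 fold change rose from 0.44 (SE 0.15, adjusted p = 0.055) to 0.60 (SE 0.086, adjusted p = 8.7e-05) when it was left out, and ATP6V1H passed the threshold in 7 of the 18 alternatives, which include the fits without SFN replicate 5 and with the replicate number as a block. ATP6V1F, the small rotor subunit, had a log2 fold change of 0.36 (SE 0.16, adjusted p = 0.13).

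In the V0 sector the data differed by subunit. ATP6V0A1, on chromosome 17 from 42458844 to 42522582, encodes the a1 isoform of subunit a, which holds the half-channels for protons and directs the pump to its membrane. Its DMSO values were 24.2, 40.1, 42.9, 46.9 and 47.0 CPM and its SFN values 35.0, 34.2, 44.8, 38.3 and 47.0 CPM. The groups overlapped along most of their range, with DMSO replicate 1 below every other library. The means were 40.2 ± 9.43 and 39.9 ± 5.77 CPM (SD, n = 5 each), and the log2 fold change was -0.013 (SE 0.18, adjusted p = 0.97) with a 95% interval from -0.40 to 0.38. Without DMSO replicate 1 it was -0.15 (adjusted p = 0.27), with an interval from -0.39 to 0.082. Its sign turned positive in 11 of the 18 alternatives, and its direction is not given. The a2 isoform, ATP6V0A2, was at 56.1 ± 10.4 CPM in DMSO and 62.4 ± 5.75 CPM in SFN (log2 fold change 0.15, SE 0.14, adjusted p = 0.50). Among the alternatives ATP6V0A2 passed the threshold only with the slopes on transcript length removed (adjusted p = 0.030 in edgeR). The log2 ratio of ATP6V0A1 to ATP6V0A2 counts ranged from -0.65 to -0.41 in DMSO and from -0.83 to -0.44 in SFN, and the ranges overlapped. ATP6V0A4, the renal isoform, had a log2 fold change of -0.26 (SE 0.30, adjusted p = 0.60) from at most 32 counts. TCIRG1, the a3 isoform of osteoclasts and of secretory lysosomes, had too few counts to be tested, with 0 to 2 in the DMSO libraries and 5 to 15 in the SFN libraries, and its last exon overlaps a long noncoding RNA on the same strand.

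ATP6V0D1 encodes subunit d, which joins the shaft to the proton-carrying ring, and lies on chromosome 16 from 67438014 to 67481181. It was at 57.8, 34.3, 36.9, 32.4 and 37.5 CPM in DMSO and at 57.2, 71.7, 58.6, 53.3 and 42.9 CPM in SFN. Only DMSO replicate 1 reached into the SFN range. The log2 fold change was 0.51 (SE 0.18, adjusted p = 0.061) with that library and 0.68 (SE 0.12, adjusted p = 6.0e-04) without it, and without SFN replicate 5 the gene passed as well. ATP6V0E1, on chromosome 5 from 172983771 to 173035445, encodes the small membrane subunit e1. DMSO libraries held 103, 53.8, 54.7, 52.3 and 55.7 CPM and SFN libraries 83.7, 139, 89.5, 89.5 and 65.2 CPM. DMSO replicate 1 and SFN replicate 2 were each far above the rest of their group. The log2 fold change was 0.55 (SE 0.23, adjusted p = 0.12) over all libraries, 0.78 (SE 0.16, adjusted p = 0.0015) without the first and 0.37 without the second. ATP6V0D2 had at most 12 counts, and ATP6V0E2 had a log2 fold change of 0.22 (SE 0.13, adjusted p = 0.28).

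**Figure D2:**
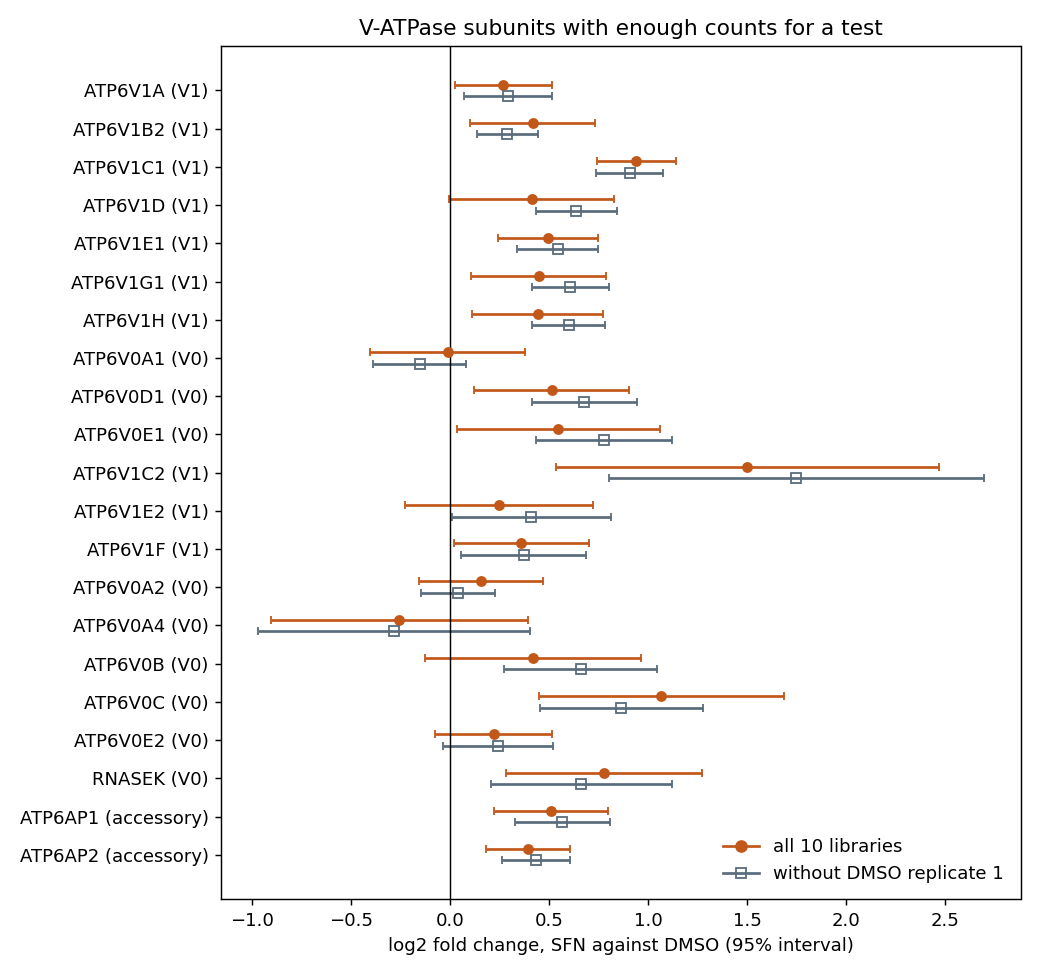
Log2 fold change of SFN against DMSO with 95% intervals (x axis) for the 21 V-ATPase subunits and accessory proteins that could be tested (y axis, with their sector), with all 10 libraries and without DMSO replicate 1. All points but those of ATP6V0A1 and ATP6V0A4 lie to the right of 0, and the intervals of ATP6V1D, ATP6V1G1, ATP6V1H, ATP6V0D1 and ATP6V0E1 are narrower without that library.

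Of the 16 other subunit and accessory genes listed, 11 could be tested. The shares over all genes were 9.07% increased and 13.9% decreased (14.6% and 20% before adjustment). Among the 11, 5 were significantly increased and 0 decreased (6 and 0 before adjustment). They were ATP6V1C2, described above, the V0 genes ATP6V0C and RNASEK, and the accessory genes ATP6AP1 and ATP6AP2. ATP6V0C, the c subunit that makes up most of the ring, rose from 4.28 ± 1.67 to 9.02 ± 2.11 CPM (SD, n = 5 each; log2 fold change 1.07, SE 0.28, adjusted p = 0.018), without overlap between the groups, and its call was lost with the length slopes removed (adjusted p = 0.073). RNASEK, which encodes subunit f, had a log2 fold change of 0.78 (SE 0.23, adjusted p = 0.028) from at most 71 counts, and its call was lost without DMSO replicate 2, 3 or 4 or SFN replicate 3 or 4, and in 4 of the 8 other alternatives. The last exons of both genes overlap other protein-coding genes on the same strand, so their counts could be split. ATP6AP1 (Ac45), an accessory subunit needed for assembly of V0, rose from 35.7 ± 4.77 to 50.7 ± 7.31 CPM (log2 fold change 0.51, SE 0.13, adjusted p = 0.016), and ATP6AP2, the prorenin receptor, rose from 98.6 ± 10.4 to 129 ± 3.43 CPM (log2 fold change 0.39, SE 0.098, adjusted p = 0.013). In both the SFN libraries were above all DMSO libraries, and the ATP6AP2 call was lost with no filter on low counts (adjusted p = 0.064). ATP6V0B, another ring subunit, had a log2 fold change of 0.42 (adjusted p = 0.27), and 0.66 without DMSO replicate 1 (adjusted p = 0.0088). The count of 5 fell to 3 without DMSO replicate 2, 3 or 4. In these fits 921, 942 and 942 of all genes were increased, against 1214 with all libraries. Without DMSO replicate 1 the count of these subunit and accessory genes was 6, where 22.5% of all genes were increased.

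When the sectors were set side by side, the median log2 fold change was 0.44 over the 7 V1 members and 0.51 over the 3 V0 members. Over all genes tested it was -0.028, with 9.07% increased (14.6% at an unadjusted p under 0.05). In V1, 2 members passed the threshold, and in V0 0 did (6 and 2 at an unadjusted p under 0.05). Over all subunits tested, 10 of V1 and 9 of V0 without the accessory genes, the medians were 0.43 and 0.42, with 3 and 2 increased. Without DMSO replicate 1 the medians of the members were 0.60 and 0.68. In that fit 7 of 7 and 2 of 3 were increased, against 22.5% of all genes. The mean log2 CPM of the V1 members was 6.78 ± 0.117 (SD, n = 5) in DMSO and 7.29 ± 0.0633 (SD, n = 5) in SFN, and the libraries of the groups did not overlap. For the V0 members it was 5.51 ± 0.126 in DMSO and 5.87 ± 0.174 in SFN, and DMSO replicate 1, at 5.71, lay above SFN replicate 5, at 5.67. The difference between the sectors within a library was 1.28 ± 0.0566 in DMSO and 1.42 ± 0.130 in SFN (SD, n = 5 each). Its ranges overlapped, from 1.22 to 1.36 in DMSO and from 1.21 to 1.53 in SFN, since SFN replicate 2 had the lowest value of all and SFN replicates 1, 3, 4 and 5 lay above every DMSO library. No test was run on these means.

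**Figure D3:**
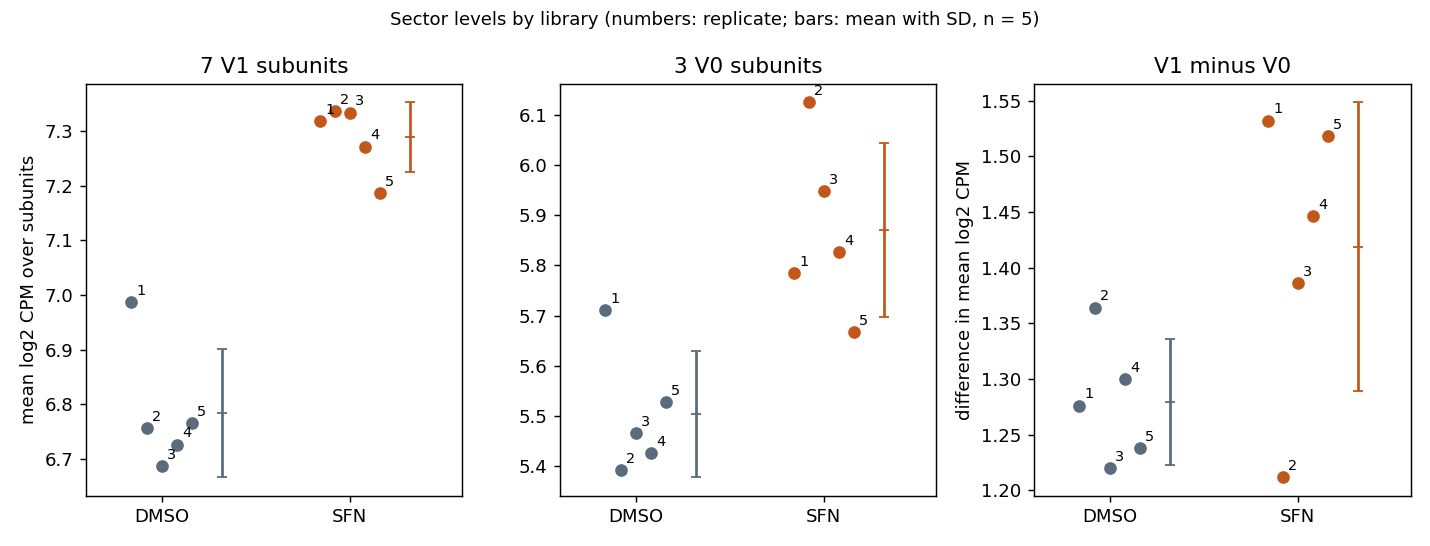
Mean log2 CPM of the V1 members, of the V0 members and their difference within each library (y axes, which do not start at 0), by treatment, with replicate numbers beside the points and the mean and SD of 5 replicates. The V1 means of SFN, from 7.19 to 7.34, lie above those of DMSO, from 6.69 to 6.99, while the V0 means and the difference overlap.

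The position of DMSO replicate 1 among the members went with transcript length. In the 6 members with the shortest canonical transcripts, from ATP6V1E1 with 1333 nt to ATP6V1H with 2120 nt, its log2 CPM was above the mean of the other DMSO libraries by 0.26 for ATP6V1E1 to 0.93 for ATP6V0E1. In the 4 longer ones the difference was -0.75 for ATP6V1B2 (2856 nt), -0.87 for ATP6V0A1 (4106 nt), 0.14 for ATP6V1A (4575 nt) and -0.15 for ATP6V1C1 (5635 nt). SFN replicate 2 was likewise above the other SFN libraries in those 6, by 0.14 for ATP6V1G1 to 0.77 for ATP6V0E1. In the longer ones it differed by 0.057 for ATP6V1B2, -0.26 for ATP6V0A1, -0.38 for ATP6V1A and -0.087 for ATP6V1C1, so that in ATP6V1A and ATP6V1B2 its sign was opposite to that of DMSO replicate 1. Removing each library's slope on transcript length was tried once the data had been seen, and 7 of the 10 members were then significantly increased and 0 decreased, against 11.8% and 16.3% of all genes. These were ATP6V1C1, ATP6V1D, ATP6V1E1, ATP6V1G1, ATP6V1H, ATP6V0D1 and ATP6V0E1, and the ATP6V0A1 log2 fold change was 0.028. The fold changes of the short members were smaller than without DMSO replicate 1, at 0.35 against 0.64 for ATP6V1D, 0.38 against 0.61 for ATP6V1G1 and 0.46 against 0.78 for ATP6V0E1, and the V1 median was 0.38 against 0.60. SFN replicate 5, whose slope was positive, was the lowest SFN library in all 6 of the shortest.

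**Figure D4:**
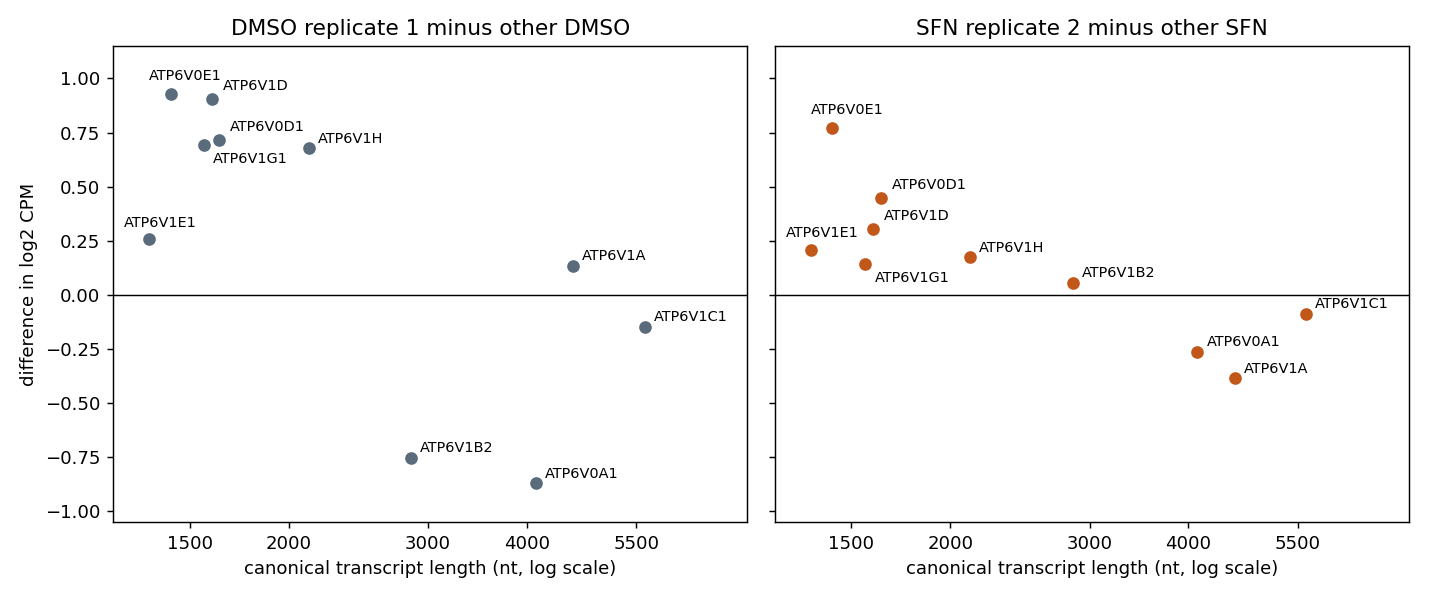
Difference in log2 CPM between a library and the mean of the other 4 of its group (y axis) against canonical transcript length in nt (x axis, log scale) for the 10 members, for DMSO replicate 1 (left) and SFN replicate 2 (right). In both panels the 6 shortest transcripts lie above 0, and ATP6V0A1 and ATP6V1C1 lie below it.

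Among the assembly factors of the pump and the lysosomal ion channels, the shares called were near the 9.07% increased and 13.9% decreased over all genes. Of 12 genes listed as assembly factors, 11 were tested, 1 was increased and 1 decreased (2 and 2 before adjustment). The list includes TLDc genes, and roles in assembly were not measured. NCOA7, a TLDc protein that binds the V-ATPase, rose from 44.8 ± 5.66 to 91.5 ± 18.9 CPM (SD, n = 5 each; log2 fold change 1.03, SE 0.16, adjusted p = 5.6e-04). MEAK7, another TLDc protein, which has been linked to mTOR signaling, fell from 41.4 ± 4.49 to 19.3 ± 2.41 CPM (log2 fold change -1.10, SE 0.12, adjusted p = 6.9e-05). Neither gene's groups overlapped, and both calls held in all 18 alternatives. The 3 V0 assembly factors of the endoplasmic reticulum had log2 fold changes of 0.35 (VMA21), 0.39 (TMEM199) and 0.17 (CCDC115), and those of the rabconnectin-3 genes DMXL1, DMXL2 and WDR7 were -0.16, -0.54 and -0.34, none past the threshold. In the fit without DMSO replicate 1, where 22.5% of all genes were increased and 23.5% decreased, TMEM199 was increased (0.62, adjusted p = 6.9e-04), and DMXL2 (-0.75, adjusted p = 0.014), WDR7 (-0.55, adjusted p = 0.010) and the TLDc gene TBC1D24 (-0.40, adjusted p = 0.042) were decreased. TBC1D24 was decreased without SFN replicate 2 as well. The transcripts of DMXL2, WDR7 and TBC1D24 are 10596, 7295 and 6611 nt long. With the length slopes removed over all 10 libraries, TMEM199, DMXL2, WDR7 and TBC1D24 were not called, while VMA21 was. The part of the length slope in the calls without DMSO replicate 1 was not tested.

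Ragulator, the pentamer that tethers Rag GTPases to the lysosome and contacts the V-ATPase, had 1 of 5 genes increased and 0 decreased. The shares over all genes were 9.07% and 13.9%. LAMTOR3 rose from 24.7 ± 3.31 to 40.1 ± 2.27 CPM (SD, n = 5 each; log2 fold change 0.70, SE 0.11, adjusted p = 9.1e-04). The log2 fold changes of LAMTOR1, LAMTOR2, LAMTOR4 and LAMTOR5 lay between -0.20 and 0.30. Leaving out DMSO replicate 1 placed all 5 between 0.43 and 0.77, with 4 significantly increased, against 22.5% of all genes, LAMTOR2 being the exception (0.43, adjusted p = 0.11 in edgeR). The transcripts of LAMTOR1, LAMTOR2, LAMTOR4 and LAMTOR5 are 594 to 1089 nt long. With the length slopes removed over all 10 libraries, none of these genes was called, and LAMTOR3 kept its call. The part of the slope in the count without DMSO replicate 1 was not tested. Of 10 ion channels and exchangers of endosomes and lysosomes, 1 was increased and 1 decreased (3 and 1 before adjustment), again near the shares over all genes. CLCN7, the lysosomal chloride-proton exchanger that balances the charge moved by the pump, rose from 32.9 ± 6.27 to 50.3 ± 3.17 CPM (log2 fold change 0.61, SE 0.14, adjusted p = 0.0084), and this call was lost when libraries were scaled by their totals alone (adjusted p = 0.056). TPCN2, a lysosomal cation channel, fell from 3.61 ± 0.660 to 1.79 ± 0.445 CPM (log2 fold change -1.001, SE 0.22, adjusted p = 0.0060), in all 18 alternatives past the threshold. It had at most 85 counts in a library. The last exon of TPCN2 overlaps another protein-coding gene on the same strand, so its counts could be split.

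**Figure D5:**
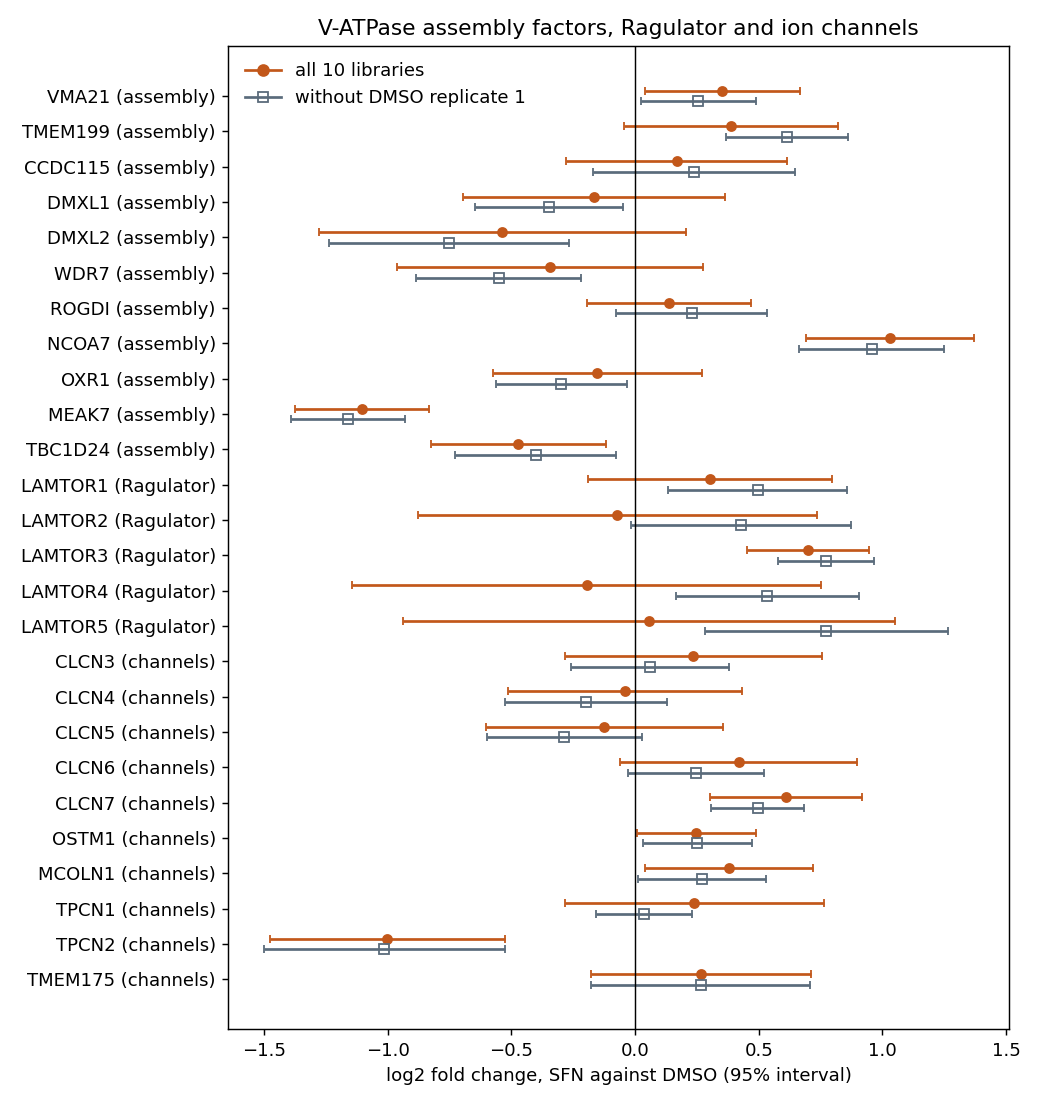
Log2 fold change of SFN against DMSO with 95% intervals (x axis) for the assembly factors, Ragulator subunits and lysosomal ion channels tested (y axis), with all 10 libraries and without DMSO replicate 1. NCOA7, LAMTOR3 and CLCN7 lie to the right of 0 and MEAK7 and TPCN2 to the left in both fits, while LAMTOR2 and LAMTOR4 change side between them.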

How the data were processed

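RNA of RPE-1 cells (5 DMSO and 5 SFN replicates) was sequenced by the authors and aligned with the Bluebee pipeline. The study's methods name Lexogen QuantSeq libraries, which read transcript 3′ ends, whereas the labels give only a standard Illumina preparation, so which part of a transcript was read is not settled here. The submitters' processing notes name FastQC, STAR, featureCounts and edgeR on GRCh38, without versions. As deposited, the values are raw counts for each Ensembl gene, neither normalized nor pooled. The annotation release and the use of strand or molecular identifiers are not given in the sources used here. Replicates differed by more than sampling noise (chi-square per degree of freedom of at least 3.5).

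Counts were filtered with filterByExpr, scaled by TMM and tested with glmQLFit and glmQLFTest of edgeR 4.0.16 in R 4.3.3, with an adjusted p under 0.05 as the threshold. DESeq2 1.42.0 and limma 3.58.1 served as alternatives. Standard errors were obtained from each log2 fold change and its F statistic. In counts simulated for this comparison (13226 genes), 69% of 100 genes changed 2-fold and 97% of 100 changed 4-fold were recovered, so smaller changes can be missed. Positions and transcript lengths are from GENCODE 44. All members are named, and of the other lists every gene past the threshold and the paralogs of members. TYR, also listed as a marker, is not analysed here. The members, lists and tests were chosen with earlier results of these data known.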

Additional observations from a re-analysis of the deposited data

Results flagged for a closer look

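A replicate is named here when its gap to the nearest replicate took up more than 0.71 of the range of its group of 5. Over the 21 V-ATPase genes tested, 42 groups were examined and 9 met this. In independent groups chance alone gives about 1 in 20, but these genes share the same 10 libraries, so that rate does not apply directly. In 8 of the 9 the replicate was DMSO replicate 1. It was the highest DMSO library for ATP6V1D (212 CPM, gap 0.915 of the range), ATP6V0E1 (103 CPM, gap 0.933), ATP6V1H (142 CPM, gap 0.842), ATP6V0D1 (57.8 CPM, gap 0.801), ATP6V0B (31.6 CPM, gap 0.797) and ATP6V1G1 (150.3 CPM, gap 0.741). For ATP6V1B2 (74.6 CPM, gap 0.899) and ATP6V0A2 (37.99 CPM, gap 0.769) it was the lowest. SFN replicate 5 was the lowest SFN library for ATP6V1F (42.2 CPM, gap 0.721). What set DMSO replicate 1 apart was not tested beyond the transcript length slope given above.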

How the results depend on the processing

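The count of 2 members significantly increased was 2 or 3 with DESeq2 size factors, quantile normalized limma-voom, no low-count filter and the replicate block (3). It was 4 with scaling by library size only, 6 with the DESeq2 Wald test and 7 with the transcript length offset. With sample quality weights in limma-voom it was 9, and it ran from 2 to 9 when replicates were left out in turn. The count of members decreased was 0 throughout. The calls over all genes moved as well. Increased genes numbered 1214 in the main fit, 819 with library size only, 1635 with the Wald test and 1577 with the length offset. They numbered 3874 with the weights and from 906 to 3058 when replicates were left out. The number of other subunits increased, 5, was 8 with sample quality weights and from 3 to 6 when replicates were left out. The median log2 fold change of the V1 members moved to 0.62 with sample quality weights, from 0.44, and that of V0 stayed between 0.37 and 0.69 over all alternatives. Over all genes, sample quality weights called 3874 increased and 4041 decreased, and leaving out DMSO replicate 1 called 3058 and 3193. The members other than ATP6V0A1 kept their direction in all 18 alternatives. The sign of ATP6V0A1, which was never past the threshold, turned with DESeq2 size factors (0.0051), the DESeq2 Wald test (0.0051), quantile normalization (0.0093), the replicate block (0.013) and the length offset (0.028), and ranged from -0.15 to 0.047 when replicates were left out. The cause was not tested. Same-numbered DMSO and SFN libraries did not pair throughout. The correlations of their deviations were 0.0587, -0.367, -0.0905, 0.0554 and 0.602 for replicates 1 to 5. Of the 10 samples, 2 correlated best with their own number.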

Other observations

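ATP6V1FNB, named as the neighbour of ATP6V1F and chosen here after its values were seen, was counted 0 to 7 times in the DMSO libraries and 20 to 30 times in the SFN libraries. Its log2 fold change was 3.19 (SE 0.56, adjusted p = 0.0016 in edgeR's quasi-likelihood test), and 3.08 without DMSO replicate 1, with all 5 SFN libraries above all DMSO libraries. It starts 483 nt past the end of ATP6V1F on the same strand of chromosome 7, and ATP6V1F itself had a log2 fold change of 0.36. Reads from beyond the end of ATP6V1F and from ATP6V1FNB were not told apart. ATP6AP1L, a relative of ATP6AP1, had a log2 fold change of 0.55 (SE 0.25, adjusted p = 0.15), and the antisense transcript ATP6V0E2-AS1 had -0.16 (SE 0.27, adjusted p = 0.74).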
